A study of Mus musculus with 47 samples.

Results

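The genes Gpc1, Them7, Rhbg, Slco2a1 and Gfm2 were examined across 47 liver RNA-seq libraries of mice on a control or a high fat, high sugar diet. They were 5 of the 20320 genes in the count table and 5 of the 16650 that passed the filter on low counts. They were taken by name, and they are the genes chosen earlier on these same libraries because their diet change passed an adjusted p of 0.05 in each of 3 inbred strains and had the same direction in all of them. That criterion was met by these 5 genes only, 0.03% of all genes tested with edgeR. The diet changes below are therefore values that selected the genes. They are given as a description, and nothing is supported by them. Differences between strains, between the sexes, and in the diet change between the sexes did not enter the choice and were tested.

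Per the labels, wild-type males and females of the strains C57BL/6J, CAST/EiJ and also NZO/HlLtJ received 1 of 2 diets, named 10% fat + fiber (the control) and 44% fat + fiber, from 6 weeks of age, and liver was collected at 15 weeks. C57BL/6J is a widely used inbred strain, CAST/EiJ descends from wild mice, and NZO/HlLtJ is an obese strain prone to diabetes. No group carried an engineered allele or another treatment. Each of the 12 groups of strain, sex and diet had 4 libraries, apart from the 3 of CAST/EiJ males on 10% fat. The labels do not say how animals were housed or whether libraries of a group came from separate litters, so the p-values reflect only how far these libraries spread, which may be technical.

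The 5 genes belong to unrelated systems. Gpc1 encodes glypican 1, a heparan sulfate proteoglycan tethered to the cell surface, where its sugar chains bind growth factors and other secreted proteins. Them7 is named as a member of the thioesterase superfamily, enzymes that release fatty acids from coenzyme A. Rhbg encodes an Rh family glycoprotein that carries ammonium across the plasma membrane. In liver it is known from the hepatocytes around the central vein, the same cells that build glutamine from ammonium. Slco2a1 encodes the prostaglandin transporter, which takes up prostaglandins ahead of their breakdown, and endothelial cells are among its known sites of expression. Gfm2 encodes the second mitochondrial elongation factor G, which helps to split mitochondrial ribosomes after translation ends.

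In the GRCm38 annotation the genes lie on 5 chromosomes, so that no pair are neighbours. Gpc1 spans chr1:92831645-92860779 on the plus strand with 9 merged exons, and Them7 spans chr2:105224320-105379796 on the plus strand with 4. Rhbg spans chr3:88242874-88254709 on the minus strand with 10, Slco2a1 spans chr9:102988712-103096002 on the plus strand with 18, and Gfm2 spans chr13:97137937-97181195 on the plus strand with 22. Per kilobase of exon, the mean level over all libraries was 17.3 CPM (counts per 1000000 counts of the library, after scaling) for Them7, 6.00 for Slco2a1, 5.21 for Rhbg, 4.56 for Gfm2 and 2.92 for Gpc1.

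RefSeq promoter windows, the 250 bases before the annotated start in GRCm38.p6, were found for 3 of the 5 genes: Them7, Slco2a1 and Gfm2. The Slco2a1 window, chr9:103008237-103008486, lies inside the gene span given above, so its RefSeq start is not the start of that span. Of the 3 windows, only that of Them7 lies mostly ahead of every annotated exon. It is printed because it can be read as upstream sequence next to a gene whose level differs by strain, sex and diet. The stretch is chr2:105224092-105224319, 228 bases on the plus strand ending just before the GENCODE start, and capitals mark AGGTCA on either strand, the core motif that nuclear receptors recognise.

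Them7: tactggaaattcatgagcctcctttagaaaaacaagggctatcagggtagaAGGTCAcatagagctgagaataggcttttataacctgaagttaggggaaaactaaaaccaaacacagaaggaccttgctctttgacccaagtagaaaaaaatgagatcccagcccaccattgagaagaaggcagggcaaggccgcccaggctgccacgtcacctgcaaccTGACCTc

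The motif AGGTCA began 199 and 29 bases before the RefSeq start of Them7, and it occurred in 14% of 32851 RefSeq windows of the same length. The Slco2a1 and Gfm2 windows held none. A pair of these motifs 1 base apart, AGGTCANAGGTCA, was in 0.0335% of windows and in none of the 3 genes. The TATA box TATAAA, found in 12.4% of windows, began 173 bases before the RefSeq start of Them7. It began 29 bases before the RefSeq start of Slco2a1, which lies inside the gene span. The GC box GGGCGG, found in 32.7% of windows, was at 58 bases in Them7 and 106 in Slco2a1. CACCC, found in 52% of windows, was at 193 and 81 bases in Slco2a1. None of these, and none of CACGTG (6.02% of windows), TCACNCCAC (1.05%), CCAAT (33.8%) or TTGCNNAA (9.56%), was in the Gfm2 window. All motifs were searched on both strands. No match in Them7 or Slco2a1 overlapped another.

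Library totals ran from 21609240 to 47780231 expected counts, with a median of 40008230. The lowest expected count of any of the 5 genes in any library was 73, for Gpc1. Some features of the libraries touch the results. In 5 libraries the pancreatic acinar gene Cpa1 reached at least 20 CPM: C57BL/6J females on 44% fat replicates 1 and 2, C57BL/6J males on 10% fat replicates 2 and 3, and CAST/EiJ females on 44% fat replicate 2. In addition, the library C57BL/6J male 44% fat replicate 3 lay nearest to the 10% fat libraries within its group for all 5 genes, the only library of 47 for which this held. NZO/HlLtJ male 10% fat replicate 4 lay nearest to the other diet for 4 of the 5 genes. The diet label of C57BL/6J male 44% fat replicate 3 could not be checked against anything but these values, and without this library the genes called by diet in C57BL/6J went from 165 to 369. Diet estimates of the 5 genes without the 5 Cpa1 libraries, and without each named library nearest to the other diet, are given with or after the values of each gene.

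**Figure D1:**
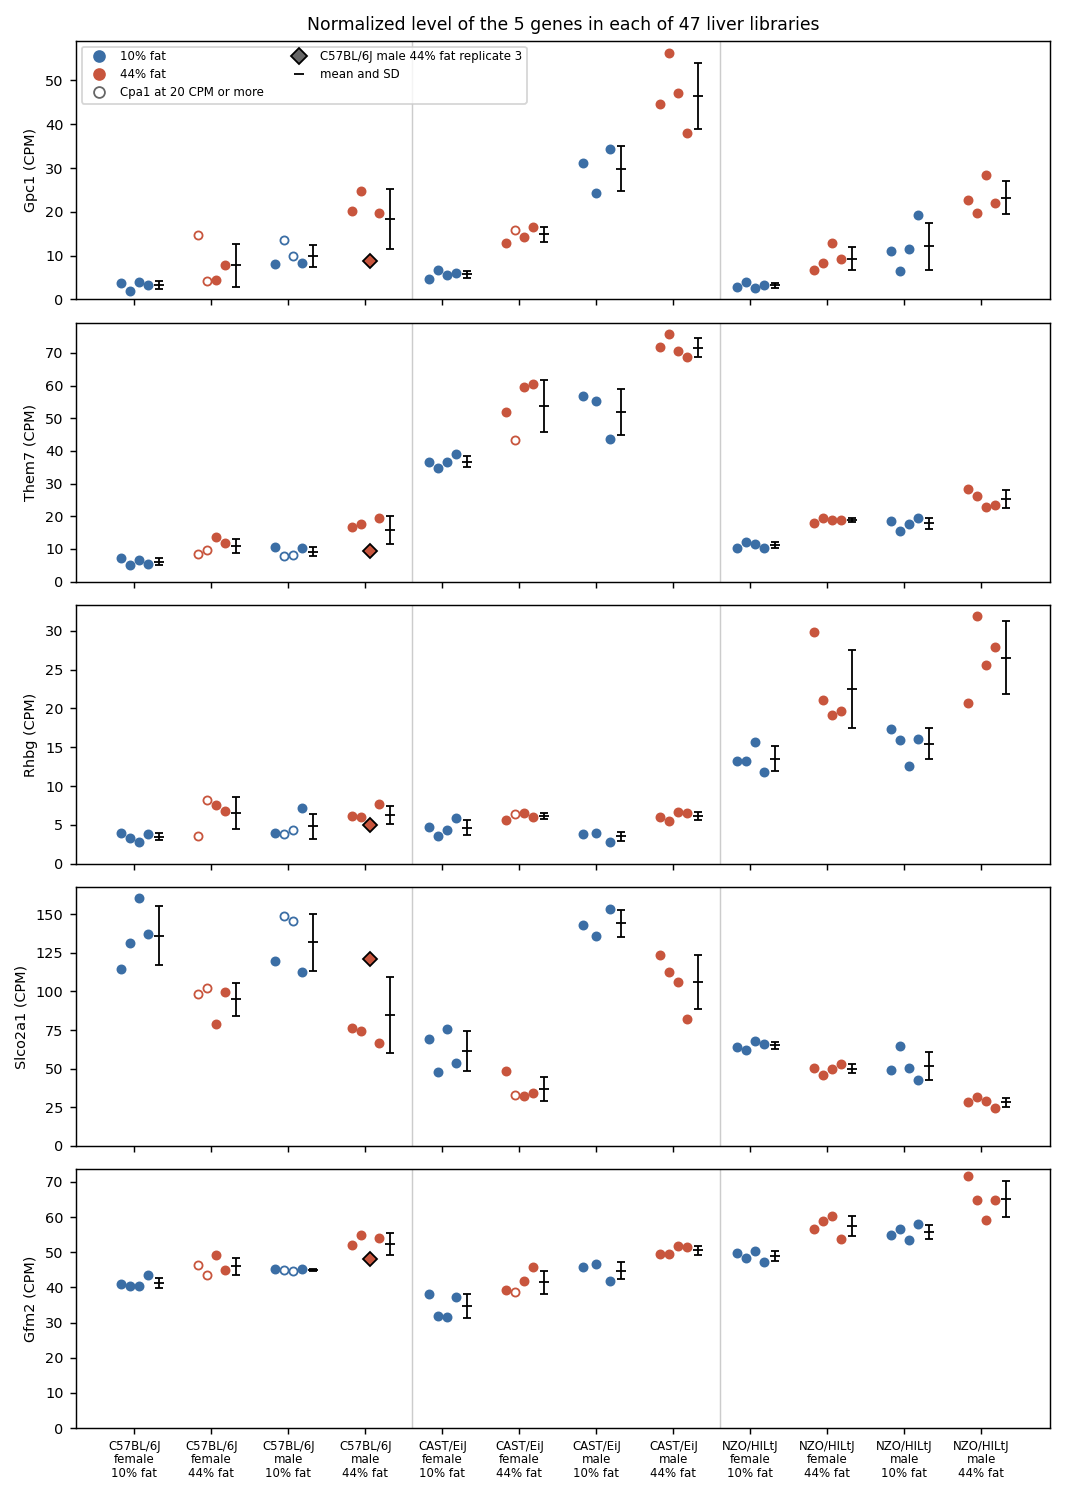
Level of each gene in CPM (y axis, linear from 0) in every library, by strain, sex and diet (x axis), with blue for 10% fat, red for 44% fat, open circles for the 5 libraries with Cpa1 at 20 CPM or more, and bars for the mean and SD. The diamond is C57BL/6J male 44% fat replicate 3. It lies among the 10% fat males of its strain for Gpc1 (8.72 CPM), Them7 (9.42 CPM), Rhbg (4.97 CPM) and Slco2a1 (120.7 CPM), but above them for Gfm2 (48.0 CPM).

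The cell-surface proteoglycan gene Gpc1 was higher on 44% fat in every strain, with an estimated 2.10-fold difference in C57BL/6J, 2.01-fold in CAST/EiJ and 2.36-fold in NZO/HlLtJ. These are the largest diet changes of the 5 genes. In a bulk tissue sample, a lower share of a cell type and less RNA per cell cannot be told apart, for this and every other gene here. C57BL/6J females had 3.76, 1.91, 4.09 and 3.29 CPM on 10% fat and 14.8, 4.10, 4.52 and 7.90 CPM on 44% fat. The groups did not overlap, but by a narrow margin, and the 44% group was carried upward by replicate 1. C57BL/6J males had 8.05, 13.6, 9.85 and 8.34 CPM on 10% fat and 20.2, 24.8, 8.72 and 19.6 CPM on 44% fat, and these overlapped through replicate 3 of the latter.

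In CAST/EiJ, Gpc1 separated cleanly by diet in both sexes. CAST/EiJ females had 4.67, 6.70, 5.51 and 6.04 CPM on 10% fat against 12.8, 15.9, 14.3 and 16.7 CPM on 44% fat. CAST/EiJ males had 31.1, 24.3 and 34.3 CPM on 10% fat against 44.5, 56.3, 47.1 and 38.1 CPM on 44% fat, the highest Gpc1 levels of the study. NZO/HlLtJ females had 2.90, 4.05, 2.51 and 3.38 CPM on 10% fat and 6.79, 8.32, 12.9 and 9.26 CPM on 44% fat. NZO/HlLtJ males had 10.97, 6.48, 11.6 and 19.3 CPM on 10% fat and 22.7, 19.8, 28.5 and 22.03 CPM on 44% fat. The last comparison did not overlap either, although replicate 4 on 10% fat came close to the lowest library on 44% fat.

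On the log2 scale of the edgeR fit, the Gpc1 difference, 44% minus 10% fat, was 1.07 ± 0.22 (SE) in C57BL/6J, 1.01 ± 0.23 in CAST/EiJ and 1.24 ± 0.22 in NZO/HlLtJ. Without C57BL/6J female 44% fat replicate 1, which also had the lowest summed level of pericentral hepatocyte markers of all libraries (2944 CPM), the C57BL/6J estimate was 0.81. Without C57BL/6J male 44% fat replicate 3 it was 1.18. By sex, the estimates were 1.26 ± 0.32, 1.38 ± 0.32 and 1.54 ± 0.32 in females of C57BL/6J, of CAST/EiJ and of NZO/HlLtJ. In males they were 0.88 ± 0.31, 0.64 ± 0.33 and 0.94 ± 0.31. The diet change of Gpc1 was thus estimated larger in females in all 3 strains, and the male minus female difference in it, averaged over strains, was -0.57 ± 0.26. That difference had an unadjusted p of 0.032 and an adjusted p of 0.912 in edgeR, so it did not pass.

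Them7, the thioesterase superfamily gene, was also higher on 44% fat, by an estimated 1.75-fold in C57BL/6J, 1.42-fold in CAST/EiJ and 1.55-fold in NZO/HlLtJ. C57BL/6J females had 7.15, 4.995, 6.69 and 5.51 CPM on 10% fat and 8.44, 9.81, 13.5 and 11.8 CPM on 44% fat. C57BL/6J males had 10.5, 7.93, 8.18 and 10.1 CPM on 10% fat and 16.6, 17.5, 9.42 and 19.5 CPM on 44% fat. The males overlapped only through replicate 3 on 44% fat. Leaving that library out took the C57BL/6J log2 difference from 0.81 ± 0.10 to 0.90.

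The level of Them7 was several times higher in CAST/EiJ and the diet groups there were apart. CAST/EiJ females had 36.6, 34.7, 36.5 and 38.9 CPM on 10% fat and 51.8, 43.5, 59.6 and 60.5 CPM on 44% fat. CAST/EiJ males had 56.8, 55.1 and 43.8 CPM on 10% fat and 71.7, 75.6, 70.5 and 68.6 CPM on 44% fat. NZO/HlLtJ females were the tightest pair of groups, with 10.3, 12.05, 11.6 and 10.4 CPM on 10% fat and 18.0, 19.5, 18.9 and 19.0 CPM on 44% fat. NZO/HlLtJ males had 18.6, 15.5, 17.5 and 19.6 CPM on 10% fat and 28.4, 26.3, 22.7 and 23.3 CPM on 44% fat. The log2 differences were 0.51 ± 0.10 in CAST/EiJ and 0.63 ± 0.10 in NZO/HlLtJ. Among the 5 genes, Them7 had the widest range of the estimate over strains, 0.30, but the strains' diet changes were not tested against each other because they chose the genes.

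Rhbg, the ammonium transporter gene, was higher on 44% fat by an estimated 1.56-fold in C57BL/6J, 1.52-fold in CAST/EiJ and 1.69-fold in NZO/HlLtJ. It was the least cleanly separated gene in single libraries. C57BL/6J females had 3.90, 3.35, 2.86 and 3.85 CPM on 10% fat and 3.58, 8.18, 7.51 and 6.73 CPM on 44% fat. C57BL/6J males had 3.95, 3.80, 4.33 and 7.135 CPM on 10% fat and 6.21, 6.06, 4.97 and 7.75 CPM on 44% fat. Each of these pairs overlapped through 1 library, the acinar-marker library replicate 1 in the females on 44% fat and replicate 4 in the males on 10% fat. Without that male library the C57BL/6J log2 difference was 0.76 in place of 0.64 ± 0.14, and without C57BL/6J male 44% fat replicate 3 it was 0.69.

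CAST/EiJ females had 4.77, 3.602, 4.31 and 5.85 CPM of Rhbg on 10% fat and 5.63, 6.39, 6.51 and 5.99 CPM on 44% fat, an overlap through replicate 4 on 10% fat. CAST/EiJ males had 3.80, 3.95 and 2.82 CPM on 10% fat and 6.08, 5.44, 6.63 and 6.53 CPM on 44% fat, with no overlap. In NZO/HlLtJ the whole range was higher and the diets were apart in both sexes together. NZO/HlLtJ females had 13.3, 13.3, 15.7 and 11.8 CPM on 10% fat and 29.9, 21.1, 19.2 and 19.7 CPM on 44% fat. NZO/HlLtJ males had 17.3, 15.9, 12.6 and 16.1 CPM on 10% fat and 20.7, 31.9, 25.5 and 28.0 CPM on 44% fat. The log2 differences were 0.61 ± 0.15 in CAST/EiJ and 0.76 ± 0.13 in NZO/HlLtJ.

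Slco2a1, the prostaglandin transporter gene, was the 1 gene of the 5 that was lower on 44% fat. Its level fell to an estimated 0.669 of that on 10% fat in C57BL/6J, 0.665 in CAST/EiJ and 0.648 in NZO/HlLtJ. C57BL/6J females had 114.4, 131.6, 160.7 and 137.3 CPM on 10% fat and 98.2, 102.0, 79.1 and 99.9 CPM on 44% fat. C57BL/6J males had 119.6, 148.6, 145.8 and 112.7 CPM on 10% fat and 76.4, 74.6, 120.7 and 66.6 CPM on 44% fat. The females were apart, and the males overlapped through replicate 3 on 44% fat, without which the log2 difference in C57BL/6J was -0.69 in place of -0.58 ± 0.11.

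CAST/EiJ females had 68.9, 47.9, 75.6 and 53.4 CPM of Slco2a1 on 10% fat and 48.4, 33.1, 32.3 and 34.2 CPM on 44% fat, and the groups overlapped through 1 library each. CAST/EiJ males had 142.9, 135.8 and 153.3 CPM on 10% fat and 123.4, 112.7, 105.9 and 81.9 CPM on 44% fat. All CAST/EiJ males on 44% fat were above all CAST/EiJ females on 10% fat. NZO/HlLtJ females had 64.0, 62.3, 67.8 and 66.2 CPM on 10% fat and 50.7, 45.8, 49.98 and 53.1 CPM on 44% fat. NZO/HlLtJ males had 49.1, 64.6, 50.6 and 42.9 CPM on 10% fat and 28.1, 31.5, 29.3 and 24.5 CPM on 44% fat. The log2 differences were -0.59 ± 0.11 in CAST/EiJ and -0.63 ± 0.11 in NZO/HlLtJ, so that the 3 strain estimates lay within 0.046 of each other.

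Because Slco2a1 is known from endothelial cells, a list of 14 endothelial markers was set beside it. Their summed level overlapped between the diets in each strain: 398.5 to 669.3 CPM on 10% fat and 476.7 to 567.2 CPM on 44% fat in C57BL/6J, 487.6 to 597.1 and 424.7 to 639.7 CPM in CAST/EiJ, and 484.5 to 627.2 and 447.9 to 626.8 CPM in NZO/HlLtJ. No endothelial marker was at 0 in any library. None of the 14 passed the edgeR diet test as lower on 44% fat. As higher, 1 passed in CAST/EiJ and 1 in NZO/HlLtJ. Lower calls were rare: of the 16650 genes tested, 28 were called lower in C57BL/6J, 66 in CAST/EiJ and 357 in NZO/HlLtJ. Of the 14 estimates, 3 were above 0 in C57BL/6J, 6 in CAST/EiJ and 9 in NZO/HlLtJ. Their medians were -0.07, -0.02 and 0.03 on the log2 scale, where those of all genes tested were 0.01, 0 and 0. The part of these markers in the diet change of Slco2a1 was not tested. The correlation of Slco2a1 with the summed endothelial level, over 47 deviations from group means, was -0.03, against a range over the other lists of markers of -0.25 to 0.29.

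Gfm2, the mitochondrial ribosome-splitting factor gene, had the smallest diet change of the 5: it was higher on 44% fat by an estimated 1.14-fold in C57BL/6J, 1.16-fold in CAST/EiJ and 1.17-fold in NZO/HlLtJ. Its spread between libraries of a group was also small, an SD of 0.081 on the log2 CPM scale, at percentile 1.03 of all genes tested, where the median gene had 0.266. C57BL/6J females had 41.0, 40.3, 40.3 and 43.5 CPM on 10% fat and 46.3, 43.4, 49.3 and 45.0 CPM on 44% fat. C57BL/6J males had 45.2, 45.0, 44.6 and 45.4 CPM on 10% fat and 52.1, 54.8, 48.0 and 54.2 CPM on 44% fat. The females overlapped narrowly, at 43.5 and 43.4 CPM, and the males were apart.

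CAST/EiJ females had 38.1, 31.7, 31.7 and 37.4 CPM of Gfm2 on 10% fat and 39.4, 38.7, 41.8 and 45.8 CPM on 44% fat. CAST/EiJ males had 45.8, 46.6 and 42.0 CPM on 10% fat and 49.4, 49.6, 51.8 and 51.4 CPM on 44% fat. Both pairs of groups were apart, as were those of NZO/HlLtJ. NZO/HlLtJ females had 49.7, 48.4, 50.4 and 47.2 CPM on 10% fat and 56.6, 58.8, 60.3 and 53.8 CPM on 44% fat. NZO/HlLtJ males had 54.9, 56.7, 53.6 and 57.9 CPM on 10% fat and 71.6, 64.9, 59.1 and 65.0 CPM on 44% fat. The log2 differences were 0.19 ± 0.05 in C57BL/6J, 0.21 ± 0.05 in CAST/EiJ and 0.23 ± 0.05 in NZO/HlLtJ. For comparison, the within-group SD of Gpc1 was 0.45, that of Rhbg 0.29, that of Slco2a1 0.22 and that of Them7 0.22.

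**Figure D2:**
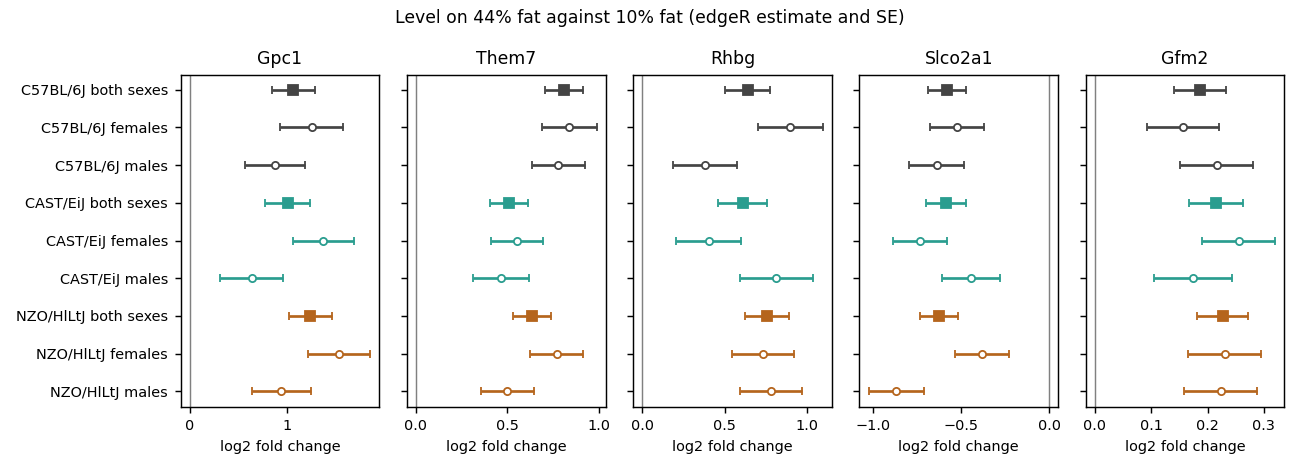
Diet change of each gene as the edgeR log2 fold change, 44% over 10% fat (x axis, a different range in each panel), in each strain for both sexes (filled squares) and for each sex (open circles), with bars of 1 SE. Every estimate lies on the side of 0 by which the gene was chosen, above it for Gpc1, Them7, Rhbg and Gfm2 and below it for Slco2a1.

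Counted over the 6 pairs of diet groups, 1 for each strain and sex, the libraries did not overlap in 5 pairs for Gpc1, Them7 and Gfm2, in 4 for Slco2a1 and in 3 for Rhbg. The same held for 3.54% of all genes tested in C57BL/6J females, 3.86% in C57BL/6J males, 3.95% in CAST/EiJ females, 9.01% in CAST/EiJ males, 8.02% in NZO/HlLtJ females and 9.32% in NZO/HlLtJ males. Of all genes tested, 0.162% were apart in the same direction in 4 or more pairs, a set that holds 4 of the 5 genes. Since these libraries chose the genes, the counts are a description. Called by diet with edgeR were 0.991% of all genes in C57BL/6J, 0.895% in CAST/EiJ and 5.64% in NZO/HlLtJ.

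The 5 genes sit close to the line that chose them. The largest adjusted p of the 3 strains was 0.0323 for both Rhbg and Gfm2, 0.0235 for Gpc1, 0.0119 for Them7 and 0.00737 for Slco2a1. Just outside lay Arl6ip1, with a largest adjusted p of 0.0576 and log2 differences of 0.26 in C57BL/6J, 0.22 in CAST/EiJ and 0.28 in NZO/HlLtJ. Next were Cmbl, at 0.0682 with 0.34, 0.42 and 0.42, and Pepd, at 0.0740 with 0.27, 0.20 and 0.22. Outside by direction alone were Tstd1 and Tceal8, named after their values were seen. They were called in all 3 strains, with 0.66, -0.66 and -0.82 for Tstd1 and 0.60, -0.63 and 0.54 for Tceal8.

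With C57BL/6J fitted alone, none of the 5 genes was called in that strain, with adjusted p from 0.0768 for Them7 to 0.210 for Gpc1, although the estimates kept their direction. Without the 5 libraries with Cpa1 at 20 CPM or more, Gpc1 and Them7 were still called in all 3 strains. Rhbg, Slco2a1 and Gfm2 then had edgeR adjusted p of 0.0578, 0.0643 and 0.135 in C57BL/6J. The log2 diet differences in C57BL/6J without those libraries were 1.04 for Gpc1, 0.83 for Them7, 0.60 for Rhbg, -0.53 for Slco2a1 and 0.20 for Gfm2, close to the values with all libraries. In CAST/EiJ they were 0.99, 0.55, 0.59, -0.57 and 0.23 in the same order of genes.

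Without C57BL/6J male 44% fat replicate 3, the C57BL/6J estimate of Gfm2 was 0.21 in place of 0.19, and those of the other genes are given above. Without NZO/HlLtJ male 10% fat replicate 4, the NZO/HlLtJ estimates were 1.40 for Gpc1, 0.66 for Them7, 0.76 for Rhbg, -0.67 for Slco2a1 and 0.24 for Gfm2. Each was at least as far from 0 as with that library. Both libraries were singled out for lying nearest to the other diet, so estimates further from 0 without them follow from how they were picked.

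Sample identifiers fall into 3 runs of consecutive numbers, which may be batches. All 9 pairs of strain and run held both diets, but only 7 held both diets of the same sex. In runs 2 and 3 the diets of NZO/HlLtJ were crossed with sex, with females on one diet and males on the other, so no within-run value was taken there. Within the 7 pairs the diet difference kept its sign for every gene. It ran from 0.74 to 1.64 on the log2 CPM scale for Gpc1, from 0.42 to 1.07 for Them7, from 0.26 to 1.00 for Rhbg, from -0.90 to -0.36 for Slco2a1 and from 0.08 to 0.35 for Gfm2.

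Each of the 5 genes differed in level between at least 2 of the strains, most of all Them7, which was highest in CAST/EiJ, and Rhbg, which was highest in NZO/HlLtJ. Strain differences were tested in edgeR with diets and sexes averaged, and they were common in these livers: 67.9% of all genes were called between CAST/EiJ and C57BL/6J, 49.1% between NZO/HlLtJ and C57BL/6J, and 68.1% between NZO/HlLtJ and CAST/EiJ. Of the 5 genes, 4, 4 and 5 were called in these comparisons. Them7 was 5.25-fold higher in CAST/EiJ than in C57BL/6J, a log2 difference of 2.39 ± 0.08 with an adjusted p of 6.47e-28. All 15 CAST/EiJ libraries, at 34.7 to 75.6 CPM, lay above all 16 of C57BL/6J, at 4.995 to 19.5 CPM, and above all 16 of NZO/HlLtJ, at 10.3 to 28.4 CPM. NZO/HlLtJ was in turn 1.77-fold above C57BL/6J, with an edgeR adjusted p of 1.50e-12.

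Rhbg was high in 1 strain. Its level in NZO/HlLtJ was 3.67-fold that in C57BL/6J, a log2 difference of 1.88 ± 0.10 with an edgeR adjusted p of 7.27e-20, and 3.77-fold that in CAST/EiJ, with an adjusted p of 3.97e-20. All NZO/HlLtJ libraries, at 11.8 to 31.9 CPM, lay above every library of C57BL/6J, at 2.86 to 8.18 CPM, and of CAST/EiJ, at 2.82 to 6.63 CPM. Between those 2 strains the log2 difference was -0.04 ± 0.10, with an adjusted p of 0.768. Slco2a1 was lowest in NZO/HlLtJ, at 0.427 of the C57BL/6J level, a log2 difference of -1.23 ± 0.08 with an adjusted p of 6.60e-17. It was at 0.701 of the C57BL/6J level in CAST/EiJ, with an adjusted p of 3.15e-07, but that average covers males and females that stood far apart.

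Gpc1 was 2.24-fold higher in CAST/EiJ than in C57BL/6J, a log2 difference of 1.17 ± 0.16 with an edgeR adjusted p of 3.62e-08. Between NZO/HlLtJ and C57BL/6J its difference was 0.21 ± 0.16, with an adjusted p of 0.271. Leaving out C57BL/6J female 44% fat replicate 1 moved the latter to 0.33 with an adjusted p of 0.0492. Gfm2 was called in all 3 comparisons. It was 1.23-fold higher in NZO/HlLtJ than in C57BL/6J (adjusted p 2.91e-10) and 1.33-fold higher than in CAST/EiJ (adjusted p 2.32e-14). Its level in CAST/EiJ was 0.924 of that in C57BL/6J, with an adjusted p of 0.00242.

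**Figure D3:**
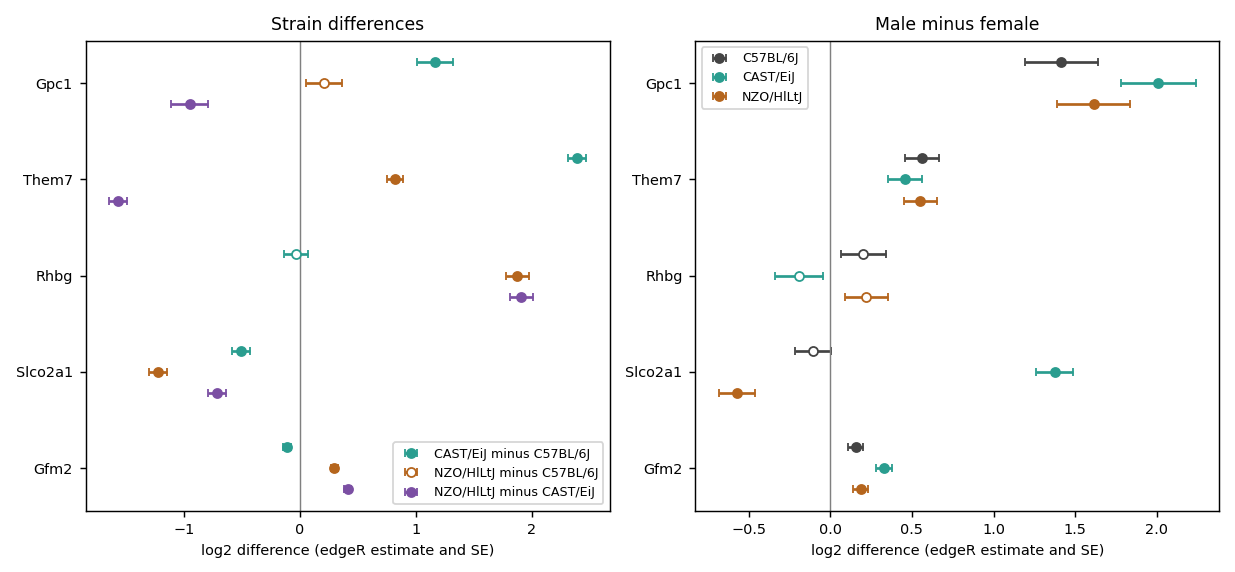
Differences between strains (left) and between males and females in each strain (right) for each gene, as edgeR log2 estimates with bars of 1 SE on the x axis; filled circles passed an adjusted p of 0.05 and open circles did not. Slco2a1 was higher in males in CAST/EiJ (1.37) and lower in males in NZO/HlLtJ (-0.57), while Gpc1 was higher in males in all 3 strains.

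Males and females differed in 3 of the 5 genes in every strain. Differences between the sexes were called for 16.8% of all genes in C57BL/6J, 30.3% in CAST/EiJ and 17.2% in NZO/HlLtJ. Gpc1 was higher in males by 2.66-fold in C57BL/6J, 4.03-fold in CAST/EiJ and 3.06-fold in NZO/HlLtJ, with edgeR adjusted p of 1.06e-05, 6.37e-09 and 1.11e-06. In CAST/EiJ every male, from 24.3 CPM, lay above every female, up to 16.7 CPM, on either diet. The sex difference of Gpc1 was 1.41 ± 0.22, 2.01 ± 0.23 and 1.61 ± 0.22 on the log2 scale in the 3 strains, as large as or larger than its diet change of 1.07, 1.01 and 1.24.

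Them7 was higher in males by 1.48-fold in C57BL/6J, 1.37-fold in CAST/EiJ and 1.47-fold in NZO/HlLtJ, with edgeR adjusted p of 0.000109, 0.000719 and 0.00011. Gfm2 was higher in males by 1.11-fold, 1.25-fold and 1.14-fold in the same strains, with adjusted p of 0.0148, 7.39e-07 and 0.00303. The C57BL/6J value for Gfm2 did not pass without the 5 libraries with Cpa1 at 20 CPM or more, where its adjusted p was 0.113. Rhbg did not pass in any strain. Its male minus female log2 difference was 0.20 ± 0.14, -0.19 ± 0.15 and 0.22 ± 0.13, with adjusted p of 0.357, 0.341 and 0.271.

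Slco2a1 had a sex difference that turned with strain. In CAST/EiJ it was 2.59-fold higher in males, a log2 difference of 1.37 ± 0.11 with an edgeR adjusted p of 9.99e-13. All 7 CAST/EiJ males, at 81.9 to 153.3 CPM, lay above all 8 females, at 32.3 to 75.6 CPM. In NZO/HlLtJ it was lower in males, by 0.57 ± 0.11 on the log2 scale with an adjusted p of 0.000182, and males ran from 24.5 to 64.6 CPM and females from 45.8 to 67.8 CPM over both diets. In C57BL/6J the difference was -0.11 ± 0.11 with an adjusted p of 0.571.

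The difference between strains in this sex effect was tested directly, a comparison added after its opposite signs had been seen. For Slco2a1 the male minus female difference was larger in CAST/EiJ than in C57BL/6J by 1.48 ± 0.16 (edgeR adjusted p 4.17e-09) and smaller in NZO/HlLtJ than in CAST/EiJ by 1.95 ± 0.16 (a log2 value of -1.95, adjusted p 7.09e-12). These tests called 10.5% and 13.6% of all genes. Between NZO/HlLtJ and C57BL/6J the value for Slco2a1 was -0.47 ± 0.15 with an adjusted p of 0.214, in a test that called 0.571% of genes. No other gene of the 5 passed any of the 3 tests. The smallest adjusted p among them was 0.0895, for Gfm2 between CAST/EiJ and C57BL/6J.

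The diet change was not found to differ between the sexes for any of the 5 genes in edgeR, where 0.012% of all genes, 2 in number, passed and 906 had an unadjusted p under 0.05. With DESeq2 27 genes passed. Beside Gpc1, given above, the male minus female difference in diet change was -0.14 ± 0.12 for Them7, -0.02 ± 0.16 for Rhbg, -0.11 ± 0.13 for Slco2a1 and -0.01 ± 0.05 for Gfm2, with adjusted p from 0.982 to 1. In Slco2a1 the estimates by sex were further apart in NZO/HlLtJ, at -0.38 ± 0.15 in females and -0.87 ± 0.16 in males, than in C57BL/6J, at -0.52 ± 0.15 and -0.64 ± 0.15. In CAST/EiJ they were in the other order, at -0.73 ± 0.16 and -0.44 ± 0.16. In identifier runs 2 and 3, NZO/HlLtJ females and males were on opposite diets. Within those runs a sex difference in diet change cannot be told apart from a difference between runs. This limit also enters the average over strains.

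Ordered by mean level over the 12 groups, each gene had its own pattern. Gpc1 ran from 46.5 ± 7.56 CPM (SD, n = 4) in CAST/EiJ males on 44% fat down to 3.21 ± 0.662 CPM (SD, n = 4) in NZO/HlLtJ females on 10% fat, and 8 of 11 neighbouring pairs in that order lay within the larger SD of the pair. Them7 ran from 71.6 ± 2.97 CPM (SD, n = 4) in CAST/EiJ males on 44% fat to 6.09 ± 1.00 CPM (SD, n = 4) in C57BL/6J females on 10% fat, with all 4 CAST/EiJ groups on top and 5 of 11 neighbours within the SD. Rhbg ran from 26.5 ± 4.68 CPM (SD, n = 4) in NZO/HlLtJ males on 44% fat to 3.49 ± 0.489 CPM (SD, n = 4) in C57BL/6J females on 10% fat. Its 4 NZO/HlLtJ groups were on top, the gap below them was 3.45 times the larger SD, and 8 of 11 neighbours lay within it.

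Slco2a1 was highest in CAST/EiJ males on 10% fat, at 144.0 ± 8.84 CPM (SD, n = 3), followed within the SD by C57BL/6J females on 10% fat, at 136.0 ± 19.1 CPM (SD, n = 4), and C57BL/6J males on 10% fat, at 131.7 ± 18.2 CPM (SD, n = 4). It was lowest in NZO/HlLtJ males on 44% fat, at 28.3 ± 2.94 CPM (SD, n = 4), and 8 of 11 neighbours did not differ beyond the SD. Gfm2 spanned the narrowest range as a ratio of the highest to the lowest group mean, from 65.1 ± 5.09 CPM (SD, n = 4) in NZO/HlLtJ males on 44% fat to 34.7 ± 3.46 CPM (SD, n = 4) in CAST/EiJ females on 10% fat, with 5 of 11 neighbours within the SD.

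Libraries of the same group also varied together in some of the genes. Over 47 deviations from the group mean, as a description of libraries that share depth and scaling, Pearson r was -0.51 for Them7 and Slco2a1, 0.51 for Them7 and Gfm2, 0.40 for Them7 and Rhbg and -0.41 for Gpc1 and Rhbg. The other 6 pairs had r between -0.34 and 0.25. Single libraries carried part of this. Without C57BL/6J male 44% fat replicate 3 the value was -0.32 for Them7 and Slco2a1, 0.43 for Them7 and Gfm2 and -0.06 in place of 0.22 for Gpc1 and Them7. Without the 5 libraries with Cpa1 at 20 CPM or more, Gpc1 and Them7 had an r of 0.56, and Gpc1 and Rhbg had -0.13.

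**Figure D4:**
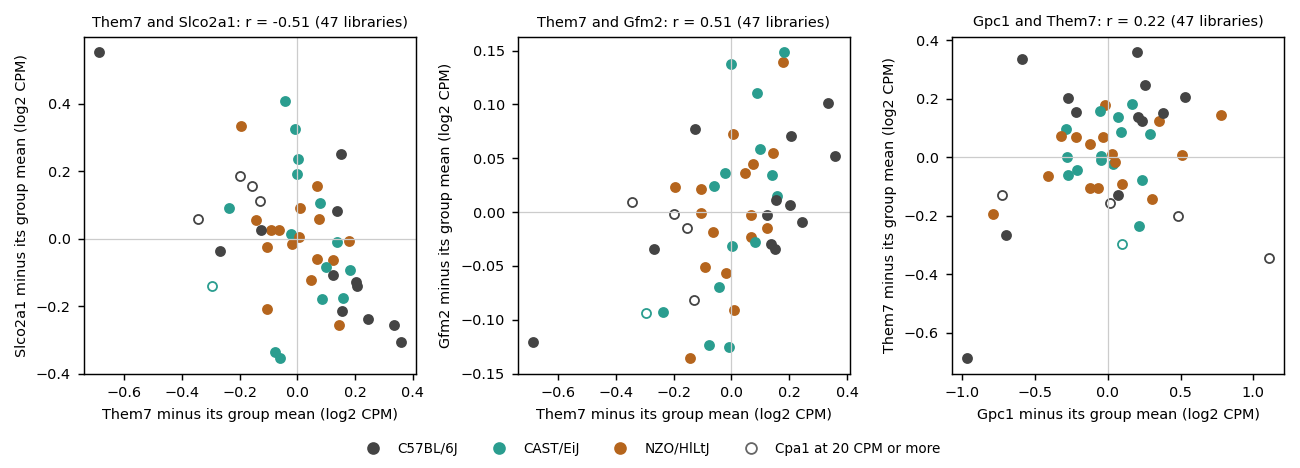
Deviation of each of 47 libraries from its group mean on the log2 CPM scale for 3 pairs of genes, coloured by strain, with open circles for the 5 libraries with Cpa1 at 20 CPM or more. The far left point of each panel is C57BL/6J male 44% fat replicate 3, and Pearson r is -0.51, 0.51 and 0.22 from left to right.

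Rhbg was set beside markers of the zone in which it is known. Over the 47 within-group deviations its r with the summed level of 14 pericentral hepatocyte markers was 0.52, against 0.34 for Them7, -0.09 for Gfm2, -0.25 for Slco2a1 and -0.41 for Gpc1. The value for Rhbg rested on 1 library: without C57BL/6J female 44% fat replicate 1, left out after the values were seen, it was 0.19 over 46 deviations. With the other lists of markers the r of Rhbg ran from -0.47 for stellate cell markers to 0.06 for periportal ones, with -0.35 for adipocyte and -0.32 for cholangiocyte markers. No pericentral marker was at 0 in any library. By diet, their summed level ran from 6540 to 8745 CPM on 10% fat and from 2944 to 9755 CPM on 44% fat in C57BL/6J, from 6611 to 10550 and from 8525 to 11240 CPM in CAST/EiJ, and from 4900 to 7369 and from 4738 to 7502 CPM in NZO/HlLtJ. None of the 14 passed the edgeR diet test in C57BL/6J or CAST/EiJ, and 1 rose in NZO/HlLtJ. Of all genes tested, 0.991%, 0.895% and 5.64% were called in the 3 strains. Of the 14 estimates, 4 were above 0 in C57BL/6J, 11 in CAST/EiJ and 3 in NZO/HlLtJ. Their medians were -0.01, 0.12 and -0.12 on the log2 scale, where those of all genes tested were 0.01, 0 and 0. The part of these markers in the diet change of Rhbg was not tested.

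By the rule fixed for likeness, genes among the 3 with the strongest r over within-group deviations were, for Gpc1, Atp9a (0.76), Ctse (0.76) and Apoa4 (0.76), and for Them7, Mipep (0.79), Snrpn (0.76) and Srbd1 (0.75). For Rhbg they were Ppp2r5c (-0.74), Foxred1 (0.73) and Unc13b (-0.71), and for Slco2a1, Crebzf (0.63) and Dnajc12 (0.59). For Gfm2 they were Tufm (0.65), Hivep1 (0.64) and Ndufs1 (0.62), of which Tufm encodes the mitochondrial elongation factor Tu and Ndufs1 a subunit of respiratory complex I. Over the 12 group means the nearest were Mgst1 (0.95) and Rab6a (0.94) for Gpc1, Prelid1 (0.99) and Slc22a18 (0.98) for Them7, Alad (0.96) and Ccdc91 (0.96) for Rhbg, Dnajc12 (0.95) and Peg13 (0.94) for Slco2a1, and Afg3l1 (0.98) and Parp16 (0.98) for Gfm2. These are the extremes of 10373 eligible genes. Dnajc12 was the 1 gene that stood on both lists of a member.

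Each gene was set beside a list of others of its pathway, to describe what the rest of the pathway did with diet. Rose and fell here mean an edgeR adjusted p under 0.05. Except for the mitochondrial ribosomal proteins, each list holds 1 of the 5 genes, whose call in every strain was fixed by the choice. Of all genes tested, 0.991% were called in C57BL/6J, 0.895% in CAST/EiJ and 5.64% in NZO/HlLtJ. Of 34 tested genes for heparan sulfate proteoglycans, their chain synthesis and trimming, Gpc1 included, 2 rose in C57BL/6J, 1 in CAST/EiJ and 3 in NZO/HlLtJ, and none fell. Their median log2 differences were -0.01, 0.04 and -0.01, where those of all genes tested were 0.01, 0 and 0. The others that rose were Sulf2, which encodes an enzyme that trims sulfate from heparan chains outside the cell, and Sdc1, which encodes syndecan 1, a main heparan sulfate proteoglycan of hepatocytes. Sulf2 had 0.69 ± 0.18 in C57BL/6J, 0.06 ± 0.18 in CAST/EiJ and 0.87 ± 0.17 in NZO/HlLtJ, with edgeR adjusted p of 0.0439, 0.960 and 0.00161. Sdc1 had 0.16 ± 0.08, 0.22 ± 0.09 and 0.47 ± 0.08, with adjusted p of 0.412, 0.258 and 0.000333.

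Of 16 tested acyl-CoA thioesterase genes, none besides Them7, chosen by its calls, was called in C57BL/6J or CAST/EiJ. With Them7 included, 3 rose in NZO/HlLtJ, where all 16 estimates were above 0. The median log2 difference was 0.20, 0.17 and 0.48 in the 3 strains. Them4, which encodes a mitochondrial thioesterase, had 0.43 ± 0.11 in NZO/HlLtJ with an edgeR adjusted p of 0.0175, and 0.03 and 0.14 in C57BL/6J and CAST/EiJ. Acot8, which encodes a peroxisomal one, had 0.29 ± 0.09 in NZO/HlLtJ with an adjusted p of 0.0473, and 0.07 and 0.34 in the others.

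Of 21 tested genes for ammonium, glutamine and glutamate handling, none besides Rhbg, chosen by its calls, was called in C57BL/6J or CAST/EiJ. In NZO/HlLtJ 3 rose, Rhbg included, and 1 fell. The medians were 0.05, 0.02 and 0.17. Oat, which encodes ornithine aminotransferase of pericentral hepatocytes, had the nearest values to those of Rhbg. They were 0.71 ± 0.20, 0.48 ± 0.21 and 0.96 ± 0.20, with edgeR adjusted p of 0.0666, 0.314 and 0.00214. Oat is also the pericentral marker that rose in NZO/HlLtJ. Of the 14 pericentral markers, 4, 11 and 3 had estimates above 0 in the 3 strains, so most did not move as Oat did in C57BL/6J and NZO/HlLtJ. Slc38a4, which encodes an amino acid transporter of hepatocytes, had 0.05, 0.10 and 0.30, the last with an adjusted p of 0.0109.

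The 22 tested prostaglandin genes cover synthesis, transport, receptors and breakdown. None besides Slco2a1, chosen by its calls, was called in C57BL/6J or CAST/EiJ. In NZO/HlLtJ 3 others rose, and none besides Slco2a1 fell. Ptgr2, which encodes a prostaglandin reductase, had 0.08, 0.10 and 0.18, with an edgeR adjusted p of 0.0356 in NZO/HlLtJ. Ptgfr, which encodes the receptor of prostaglandin F, had 0.65 ± 0.46, -0.21 ± 0.44 and 1.39 ± 0.43, the last with an adjusted p of 0.0453, at a mean level of only 0.521 CPM. The medians of the list were 0.10, -0.05 and 0.10.

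Of 21 tested mitochondrial translation factor genes, 2 rose in C57BL/6J, 1 in CAST/EiJ and 2 in NZO/HlLtJ, and none fell. The second was Gfm1, which encodes the elongation factor that moves the mitochondrial ribosome along, with 0.25 ± 0.05, 0.11 ± 0.06 and 0.26 ± 0.05 and edgeR adjusted p of 0.0139, 0.425 and 0.00266. Mtrf1, which encodes a release factor, had 0.17, -0.31 and 0.14 and did not pass. The mitochondrial ribosomal proteins, 77 genes, had medians of 0.09, 0.02 and 0.02, and 1 rose in C57BL/6J and none in the other strains. That gene was Mrpl16, with 0.22 ± 0.06 and an adjusted p of 0.0404. In C57BL/6J 66 of the 77 estimates were above 0, and in each of the other strains 46.

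**Figure D5:**
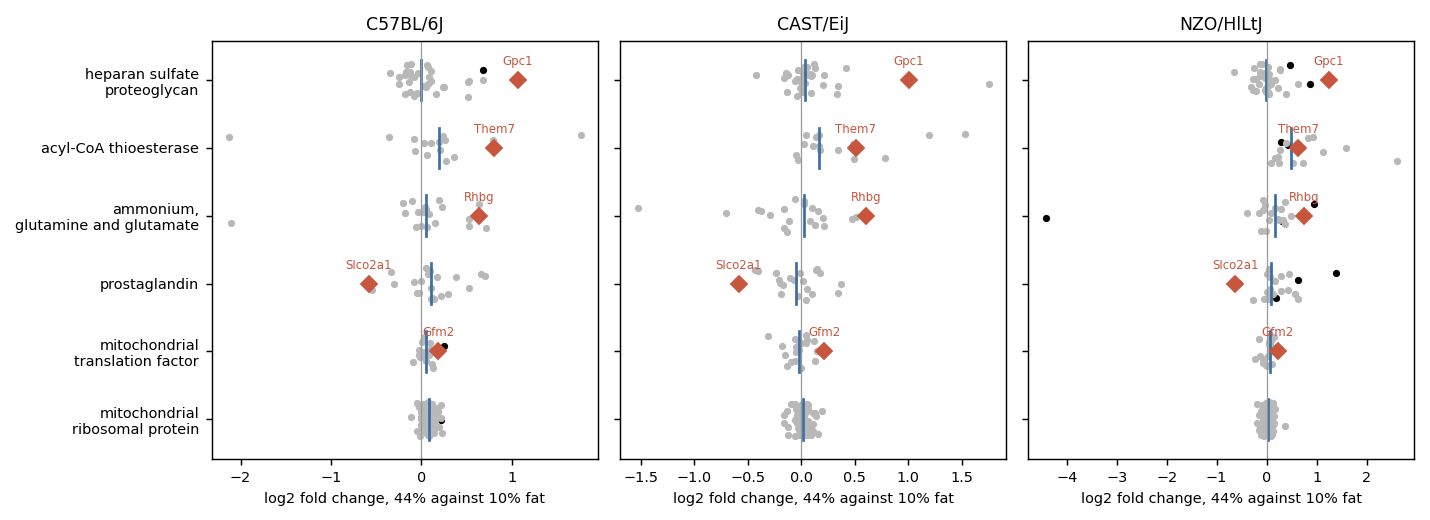
Diet change as the edgeR log2 fold change, 44% over 10% fat (x axis, a different range in each panel), for the genes of 6 lists in the 3 strains, with red diamonds for the 5 genes, black for others past an adjusted p of 0.05, grey for the rest and blue bars for list medians. Slco2a1 lies lowest of the 22 prostaglandin genes in each strain (-0.58, -0.59 and -0.63).

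Genes next to the 5 on the chromosome were checked because reads of overlapping genes may be shared in counting. Nsa2, which starts 11 bases from Gfm2 on the other strand, had -0.04, 0.02 and -0.07 and was not called, and Fam169a, 8416 bases away, had 0.20, -0.03 and 0.53 and was not called. Rhbg shares 11330 bases with Gm38392 on the same strand, a gene at a mean of 0.145 CPM. At that low level Gm38392 had -3.78, 1.18 and -3.43 and was not called. Of the deposited values, 91.5% of those of Rhbg and 89.4% of those of Gfm2 were not whole numbers, against 0% for Gpc1, Them7 and Slco2a1 and 20.4% over all genes tested. A value that is not whole is an estimate that shares reads between genes or copies, so the levels of Rhbg and Gfm2 depend in part on how the authors divided them.

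Gpc1 holds Gm29480 in the antisense direction, which did not pass the filter on low counts, and lies 9350 bases from Ankmy1, which was not called. The nearest gene to Them7 was Rcn1, 6495 bases away, with 0.01, 0.10 and 0.13 and no call. Slco2a1 had no neighbour within 10 kb. Where the counting did not use strand, reads of a gene and its antisense partner cannot be told apart. Since CAST/EiJ and NZO/HlLtJ differ from the reference genome in sequence, a level compared between strains can also reflect how well reads aligned, and how the authors treated this is not given in the sources used here.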

How the data were processed

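Polyadenylated RNA of 47 mouse livers was sequenced as paired 100-base reads, per the labels. For each gene the authors deposited expected counts (not always whole) and log2 values after a variance-stabilizing step. GRCm38 and DESeq2 are named, with no version, in the submitters' processing notes. Not given in the sources used here: aligner, counter, annotation release, strand setting and treatment of strain variants.

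The counts deposited by the authors were rounded to whole numbers and fitted with edgeR 4.0.16 in R 4.3.3 (quasi-likelihood test, robust, TMM scaling, filterByExpr over 12 groups of strain, sex and diet, no covariate, 35 residual degrees of freedom). p-values were adjusted by Benjamini-Hochberg over 16650 genes, with a threshold of 0.05. The SE is the estimate divided by the square root of F. CPM are TMM-scaled, and log2 CPM add a prior count of 2. The deposited log2 values were tested with limma 3.58.1 as an alternative to edgeR, and DESeq2 1.42.0 served as another. No pair of 69 replicate pairs was identical. The fit was tested on simulated data with a known set of changed genes and recovered their direction and size. The planted diet changes were larger than those of Gfm2, and no strain or sex differences were planted. The simulation therefore does not cover changes as small as those of Gfm2.

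The members and gene lists were chosen with earlier results of these data known. Genes named are the 5 members, the 3 nearest outside the criterion, neighbours within 10 kb, up to 3 genes of each list with the smallest p in any diet comparison, the genes most like each member (mean log2 CPM of at least 1), and Cpa1; some genes that this rule names are not reported here. Hepatocyte, periportal, Kupffer cell, stellate cell, cholangiocyte, lymphocyte and adipocyte marker lists were also summed. Library totals of 21609240 to 47780231 expected counts limit precision for genes of low level. Gpc1 had the lowest count of the 5 genes in any library, and Rhbg the lowest mean level. Promoter windows are from RefSeq (GRCm38.p6) and gene models from GENCODE M21, whose coordinates equal the deposited ones for all 5 genes. Alternatives were another scaling, other filters, leaving out libraries, identifier runs or a clock gene score as covariates, strains fitted alone, and the other tools.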

Additional observations from a re-analysis of the deposited data

Results flagged for a closer look

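Of 55 groups of 4 libraries checked, 3 had 1 library far from the others by Dixon's criterion, and chance flags about 1 in 20 groups. Rhbg was at 7.135 CPM in C57BL/6J male 10% fat replicate 4, where the next library had 4.33 CPM. Slco2a1 was at 79.1 CPM in C57BL/6J female 44% fat replicate 3, below the next at 98.2 CPM. Slco2a1 was at 48.4 CPM in CAST/EiJ female 44% fat replicate 1, above the next at 34.2 CPM. Without the library named, the diet difference was 0.76 for Rhbg in C57BL/6J, -0.54 for Slco2a1 in C57BL/6J and -0.67 for Slco2a1 in CAST/EiJ, where with all libraries it was 0.64, -0.58 and -0.59.

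The sex difference of Slco2a1 differed between strains by a direct edgeR test. The male minus female log2 difference in CAST/EiJ minus that in C57BL/6J was 1.48, with an adjusted p of 4.17e-09, and that in NZO/HlLtJ minus that in CAST/EiJ was -1.95, with an adjusted p of 7.09e-12. In CAST/EiJ all 7 males lay above all 8 females. Both values passed the threshold under every alternative and with each library left out.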

How the results depend on the processing

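Of 3605 values of the 5 genes under alternatives, 3587 were counted as unchanged, and no diet, strain or sex difference that passed turned its direction. A strain or sex value counted as unchanged if it kept its side of the threshold. A diet value did so if it moved by less than the spread between libraries, even where its call was lost. Leaving out 1 library can hardly move an estimate that far, so the count says little on stability. The diet calls were less stable than the estimates: with 1 of 47 libraries left out, Them7 and Slco2a1 were called in all 3 strains in 47 refits, Gpc1 in 44, Rhbg in 37 and Gfm2 in 33. Gpc1 lost its CAST/EiJ call without CAST/EiJ male 10% fat replicate 1 or 2, or female 10% fat replicate 1.

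All 5 genes were called in all strains with DESeq2 (15 genes in all), but 2 without the libraries with Cpa1 at 20 CPM or more and 0 with each strain fitted alone. With the no-filter setting Gfm2 had an adjusted p of 0.055 in C57BL/6J. Genes called by diet numbered, in C57BL/6J, 61 without the Cpa1 libraries, 87 with a clock score as covariate, 4 with the strain fitted alone and 317 with DESeq2, against 165. In CAST/EiJ they numbered 99 with the identifier run as covariate, 77 with the strain alone and 306 with DESeq2, against 149. For sex-by-diet 0 passed without a filter, 0 with the run covariate and 27 with DESeq2, against 2. The sex difference in NZO/HlLtJ minus that in C57BL/6J called 160 genes with limma and 206 with DESeq2, against 95. The cause of these shifts was not tested.

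With 1 library left out, genes called ranged from 56 to 369 in C57BL/6J (the extremes without male 44% fat replicates 4 and 3), from 30 to 417 in CAST/EiJ (without male 10% fat replicate 1 and female 10% fat replicate 2), from 532 to 1178 in NZO/HlLtJ (without male 10% fat replicates 2 and 4) and from 0 to 7 for sex-by-diet. Genes called in all 3 strains ranged from 2 to 13, and members among them from 2 to 5. Of the correlations, Gpc1 and Gfm2 had 0.08, but -0.028 by Spearman and -0.053 without C57BL/6J male 44% fat replicate 3, and Gpc1 and Them7 had -0.057 without that library, against 0.22. Of the strain and sex calls of the 5 genes, 1 was lost, that of the Gfm2 sex difference in C57BL/6J, without the Cpa1 libraries (adjusted p 0.113). A call of Gpc1 in NZO/HlLtJ against C57BL/6J was gained without C57BL/6J female 44% fat replicate 1, and one of Gfm2, for the sex difference in CAST/EiJ minus that in C57BL/6J, without CAST/EiJ female 10% fat replicate 1 (0.20, adjusted p 0.0442) or female 44% fat replicate 4 (0.20, 0.0456).

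No paired analysis was possible because the labels give the libraries no replicate numbers. The lowest expected count of the 5 genes was 73, for Gpc1 in 1 library. By mean level Rhbg was the lowest, at 10.09 CPM against 15.05 CPM for Gpc1. The part of depth in the spread of these genes was not tested.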

Other observations

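The number of genes called in all 3 strains in the same direction was 2 to 13 with 1 library left out, and it moved by more than 1.5 times in 8 of 47 such refits. It was 10 without CAST/EiJ female 10% fat replicate 2 and 8 without C57BL/6J female 44% fat replicate 1. Without C57BL/6J male 44% fat replicate 3, which lay nearest the other diet for all 5 genes, 13 genes passed in all strains in the same direction, the 5 and 8 others. The others are named after their values were seen. Hadh had log2 diet differences of 0.32 in C57BL/6J, 0.30 in CAST/EiJ and 0.40 in NZO/HlLtJ. In the same order Acads had 0.22, 0.24 and 0.27, and Hsd17b4 had 0.24, 0.42 and 0.34. Fabp2, which encodes a fatty acid binding protein, had 0.49, 0.72 and 0.42. Slc22a3, which encodes an organic cation transporter, had 0.70, 0.70 and 1.19, Cmbl had 0.41, 0.42 and 0.42, and Vwa8 had 0.29, 0.40 and 0.38. Aph1b, which encodes a subunit of gamma-secretase, had -0.68, -0.71 and -0.95. These calls were not made with all libraries, and the part of that library in them was tested only by leaving it out.

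DESeq2 on all 47 libraries gave 15 such genes, the 5 and 10 others. Only Cmbl and Aph1b, 2 genes outside the 5, were on both lists. The other 8 with DESeq2 were Arl6ip1, Pepd, Slc35f2, Zfp30, Cyp4a12a, Tmem28, Tcf24 and Gm19619. Of these Cyp4a12a, which encodes a fatty acid hydroxylase known to be higher in male liver, had 1.96, 1.59 and 1.34.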
